A study of Mus with 8 samples.

Results

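The interferon-stimulated genes described here are 42 genes, named by symbol. They are genes that cells switch on in response to interferons, together with 1 interferon and the type I interferon receptor chains. The names were chosen with earlier results of these data known. A probe belonged to a gene when its current or older symbol in the platform annotation was one of these names. 41 of the 42 genes had a probe, and 27 were bright enough to be among the 11859 genes tested. 14 had probes that were detected on fewer than 4 of the 8 arrays, and for 1, Ifi44, no probe was listed. Of the 27 tested genes, 18 are best known as targets of type I interferon, 7 as targets of interferon gamma, and 2 encode a ligand and a receptor chain.

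The samples were 8 cultures of aortic vascular smooth muscle cells from male C57 black 6 mice aged 8 weeks, grown to passage 1 and measured on 1 Illumina bead array each. 4 cultures, called WT, came from Tie2floxed mice without the SM22α Cre transgene, and 4, called KO, from Tie2floxed mice with it. All cultures thus carried the floxed Tie2 gene, and Cre, driven by the promoter of the smooth muscle gene SM22α, was present in KO only, so Cre itself and loss of Tie2 cannot be told apart. All WT arrays shared slide 1 with KO replicates 1 and 2, while KO replicates 3 and 4 were on slide 2. Whether a culture stands for 1 mouse or for several is not stated in the labels, whose description of each culture joins several numbers of unstated meaning, so p-values measure the spread between these cultures, which may be technical. Tek, the gene of Tie2, ranged from 6.35 to 7.42 in WT and from 4.78 to 5.56 in KO in log2 intensity, without overlap. It was still detected on all 8 arrays, those of KO included. Its log2 fold change was -1.48 (SE 0.27), with a limma adjusted p of 0.81 over all genes. Of 12 smooth muscle markers, 11 were tested, and their levels differed widely. Acta2, smooth muscle actin, stood at 14.56 to 14.64 and Myh11, smooth muscle myosin, at 5.23 to 8.75. Cnn1 and Itga8 were dim, at 4.23 to 5.75 and 4.21 to 6.09, detected on 4 and 5 of the 8 arrays. 44.9% to 49.5% of probes were detected per array, and the number of arrays limits the precision.

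Type I interferons bind the receptor chains IFNAR1 and IFNAR2 and act through the kinases JAK1 and TYK2. Through STAT2 and IRF9 the signal reaches the promoters of antiviral genes. Interferon gamma uses its own receptor and induces IRF1, the guanylate-binding proteins and the immunity-related GTPases. Many genes answer to both, so the division used here is by the interferon each gene is best known for.

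1 culture, WT replicate 2, was the highest in most of these genes and far above the other 7 in part of them, and leaving it out turned the median difference between genotypes from lower to higher in KO. 22 of the 27 tested genes were highest in WT replicate 2, against 21.0% of all genes tested. In 12 of the 27 it lay more than 1 log2 unit above every other culture, against 2.34% of all genes tested. 0 of the 27 were lowest there, where 21.3% of all genes were. The 5 genes highest in another culture were Ifne, Eif2ak2, Ifitm3, Irgm1 and Iigp1. The heat map of the tested genes shows this culture as 1 strongly coloured column across the roles.

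**Figure D1:**
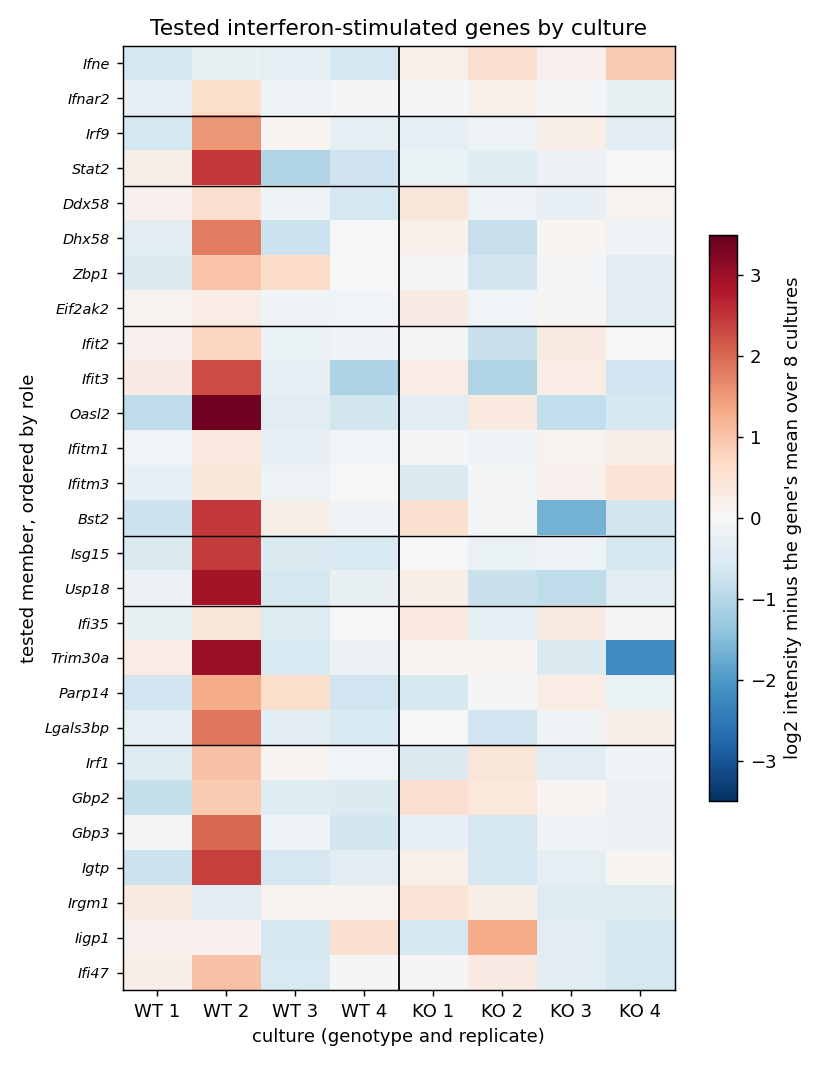
Log2 intensity of the 27 tested genes (rows, by role) in the 8 cultures (columns), as the difference from each gene's mean over the cultures, with red above and blue below that mean. WT replicate 2 is the highest culture in 22 of the 27 rows. Its strongest cells are those of Oasl2, Trim30a and Usp18.

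The ligand and the receptor chains showed little or none of that excess. Ifne encodes interferon epsilon, a type I interferon known from the epithelium of the female reproductive tract. On the log2 intensity scale, with cultures always given in the order of their replicate numbers, it stood at 4.27, 4.65, 4.57 and 4.30 in WT and at 5.07, 5.46, 5.05 and 5.80 in KO. Every KO culture was above every WT culture. The probe was detected on 0 of 4 WT arrays and on 4 of 4 KO arrays, so Ifne passed the filter of 4 detected arrays only through the group where it was high. Its separation is therefore given as a description, and nothing is drawn from its limma p-value. Among the 27 tested genes it was the 1 whose groups did not overlap, while 3.28% of all genes tested did not, 1.61% with KO higher and 1.67% with KO lower, and nothing is read from that count. In WT, where it was not well above background, only a bound can be given. On the background-corrected scale used here Ifne was at least 1.71-fold higher in KO, and on other scales the difference was smaller. That bound sets the KO mean of 5.34 against a WT bound of 4.57, for which each array contributed the lowest value of its detected probes or the value of Ifne, whichever was greater. The measured WT mean was 4.45 ± 0.19 (SD, n = 4) and the KO mean 5.34 ± 0.36 (SD, n = 4). The limma adjusted p over all genes was 0.83. The log2 fold change was 0.90 (SE 0.21), and 0.96 without WT replicate 2. It was 0.30 without background correction and 0.41 under another background correction. In the authors' value table it was 0.30, with intensities of 100.2, 113.9, 112.1 and 101.5 in WT and 122.8, 136.7, 121.6 and 144.3 in KO.

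Ifnar2, the chain that binds type I interferon with high affinity, was detected on all 8 arrays. Through its brightest probe it stood at 6.96, 7.86, 7.12 and 7.22 in WT and at 7.19, 7.44, 7.22 and 6.99 in KO. The log2 fold change was -0.08 (SE 0.22). WT replicate 2 was highest and the groups overlapped. The other kept probes of Ifnar2 had log2 fold changes of -0.26 and -0.43, the latter through a dim probe detected on 4 of 8 arrays. Ifnar1, the other chain, was measured by 1 probe near background and was not tested. Its values were 4.23, 4.99, 4.84 and 5.04 in WT and 4.30, 4.49, 4.87 and 4.15 in KO, detected on 3 of 4 WT arrays and 0 of 4 KO arrays. KO replicate 3, where the probe was not detected, lay above WT replicate 3, where it was, and the groups overlapped.

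The transcription factors of the type I response were among the genes that set WT replicate 2 apart. Stat2, the signal transducer specific to type I and type III interferons, stood at 6.08, 8.33, 4.80 and 5.13 in WT and at 5.63, 5.43, 5.65 and 5.85 in KO. Irf9, its DNA-binding partner, stood at 7.81, 9.96, 8.48 and 8.07 in WT and at 8.10, 8.24, 8.66 and 8.03 in KO. In WT replicate 2, Stat2 was 7.06-fold and Irf9 3.39-fold above the geometric mean of the other 7 cultures. The size of such folds depends on the background correction. In the authors' value table Stat2 was 403.9 in WT replicate 2 and 118.3 to 156.4 in the other cultures, a smaller excess. The other WT cultures overlapped with KO for both genes. The log2 fold changes between genotypes were -0.44 (SE 0.68) for Stat2 and -0.32 (SE 0.43) for Irf9. Both changed sign without WT replicate 2, to 0.31 and 0.14. Irf7, the factor that amplifies type I interferon production, was outside the test and is described with the dim genes below.

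The ISG15 system showed the pattern most plainly. Isg15 is a ubiquitin-like protein that is attached to other proteins after interferon, and Usp18 removes it and also dampens signalling at IFNAR2. Isg15 stood at 8.60, 11.52, 8.60 and 8.54 in WT and at 9.08, 8.85, 8.89 and 8.52 in KO. Usp18 stood at 6.94, 10.06, 6.55 and 6.89 in WT and at 7.36, 6.37, 6.25 and 6.79 in KO. For Isg15 the other 3 WT cultures had an SD of 0.03, while WT replicate 2 was 6.95-fold above the mean of the other 7 cultures. For Usp18 that excess was 3.32 log2 units. In the authors' value table, Isg15 was 2991.5 in WT replicate 2 and 462.4 to 620.4 in the other cultures. The WT mean of Isg15 was 9.31 ± 1.47 (SD, n = 4) and the KO mean 8.84 ± 0.23 (SD, n = 4). Its log2 fold change was -0.48 (SE 0.63), and that of Usp18 -0.92 (SE 0.72), or 0.26 and -0.10 without WT replicate 2. A second probe of Usp18 had WT replicate 2 highest as well, at 7.22, and a log2 fold change of -0.32.

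Among the antiviral effectors, 6 of 18 were tested. Oasl2, a relative of the oligoadenylate synthetases, had the largest excess of any tested member. It stood at 6.51, 10.81, 7.02 and 6.75 in WT and at 7.03, 7.74, 6.54 and 6.83 in KO. WT replicate 2 was thus 14.89-fold above the mean of the others. In the authors' value table it was 1851.4 there and 179.4 to 286.3 elsewhere, a smaller excess. Bst2, or tetherin, which holds budding virus at the cell surface, stood at 7.75, 11.00, 8.72 and 8.38 in WT and at 9.08, 8.44, 6.87 and 7.87 in KO. Ifit3, a protein that binds foreign RNA in a complex with other IFIT proteins, stood at 9.51, 11.49, 8.94 and 8.15 in WT and at 9.47, 8.17, 9.49 and 8.54 in KO. In all 3 genes the other WT cultures overlapped with KO. Their log2 fold changes were -0.74, -0.90 and -0.60, with standard errors of 0.88, 0.72 and 0.67, and 0.28, -0.22 and 0.05 without WT replicate 2. The other 3 effectors varied less. Ifit2 ranged from 7.71 to 9.23 over the 8 cultures, and Ifitm1 and Ifitm3, membrane proteins that block virus entry, from 13.32 to 13.94 and from 12.84 to 13.84. 2 dimmer kept probes of Ifitm1 had WT replicate 2 at 8.04 and 6.01, the highest of the 8 cultures in each.

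**Figure D2:**
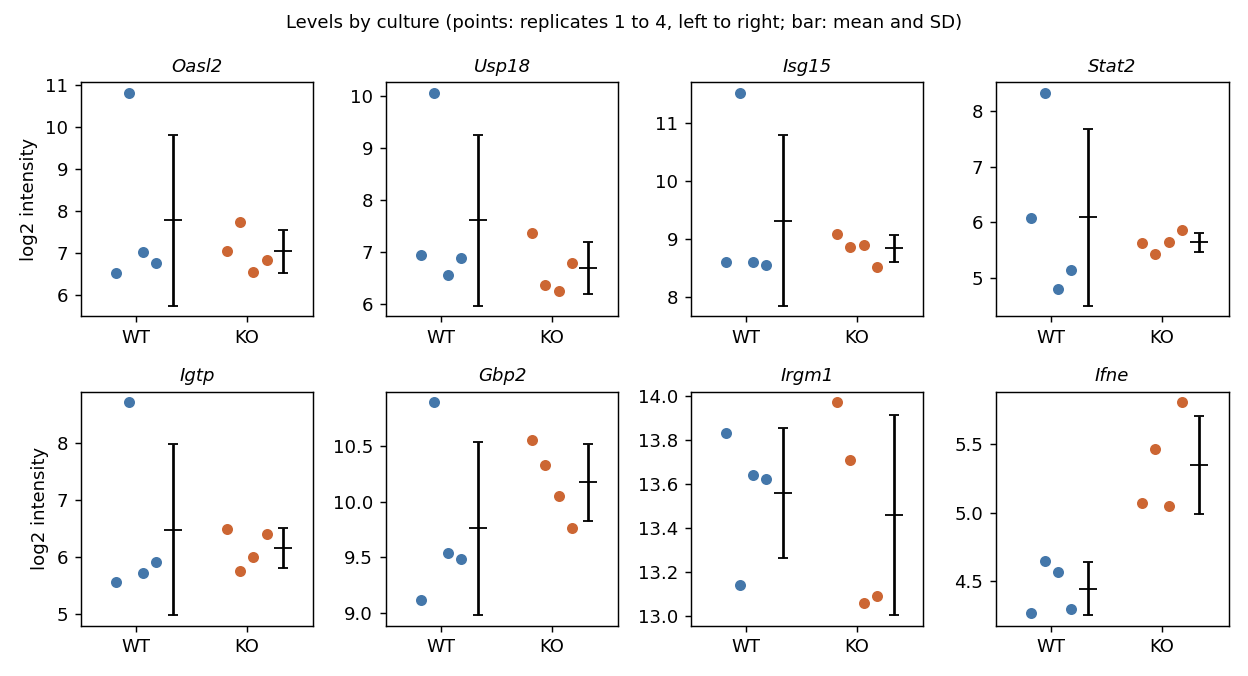
Log2 intensity (vertical axes, each with its own range) of 8 genes in the 4 WT and 4 KO cultures, with the mean and SD of each group. A single WT point, replicate 2, lies above all others for Oasl2, Usp18, Isg15, Stat2, Igtp and Gbp2. For Irgm1 it lies among the lower points, and Ifne is the gene without overlap between the groups.

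The nucleic acid sensors were divided. Dhx58, or LGP2, a helicase that regulates RNA sensing, stood at 4.79, 6.97, 4.39 and 5.15 in WT and at 5.33, 4.33, 5.22 and 5.01 in KO. Zbp1, a sensor of Z-form nucleic acid, stood at 6.12, 7.62, 7.26 and 6.62 in WT and at 6.53, 5.96, 6.55 and 6.22 in KO. WT replicate 2 was the highest culture for both, but for Zbp1 WT replicate 3 followed within 0.35 log2 units. The log2 fold change of Zbp1 was -0.59 (SE 0.32), and -0.35 without WT replicate 2. That of Dhx58 was -0.35 (SE 0.52), and 0.20 without it. Ddx58, or RIG-I, ranged from 6.19 to 7.37 and Eif2ak2, or PKR, a kinase activated by double-stranded RNA, from 9.48 to 10.16. Their log2 fold changes were 0.02 and -0.09. In WT replicate 2 these 2 genes were 1.57-fold and 1.23-fold above the mean of the other cultures, with KO replicate 1 at nearly the same level in each.

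Of the remaining type I targets, Trim30a, a ubiquitin ligase that limits inflammatory signalling, had the widest spread. It stood at 6.70, 9.42, 5.89 and 6.23 in WT and at 6.51, 6.50, 5.95 and 4.25 in KO, where the probe was detected on 3 of 4 arrays. WT replicate 2 was at the top and KO replicate 4 at the bottom, and the log2 fold change of -1.26 (SE 0.81) was -0.47 without the first and -0.74 without the second. Lgals3bp, a secreted glycoprotein that binds galectin, stood at 9.73, 11.96, 9.67 and 9.55 in WT and at 10.05, 9.41, 9.94 and 10.30 in KO. Its log2 fold change was -0.30 (SE 0.52), and 0.27 without WT replicate 2. Parp14, a mono-ADP-ribosyltransferase, ranged from 6.80 to 8.81 and Ifi35 from 7.64 to 8.53, again with WT replicate 2 highest.

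The 7 gamma-type genes were all tested, and their profiles differed. Igtp and Irgm1 are immunity-related GTPases of the IRGM group, Iigp1 and Ifi47 GTPases of the same family, and Gbp2 and Gbp3 guanylate-binding proteins, all of which act on vacuoles that hold intracellular pathogens. Igtp stood at 5.56, 8.72, 5.73 and 5.92 in WT and at 6.50, 5.75, 6.01 and 6.41 in KO. Gbp3 stood at 7.74, 9.79, 7.61 and 7.12 in WT and at 7.47, 7.21, 7.64 and 7.56 in KO. Both followed the type I pattern, with WT replicate 2 at 6.68-fold and 4.96-fold above the mean of the other cultures. Their log2 fold changes were -0.32 and -0.60, with standard errors of 0.65 and 0.51, and 0.43 and -0.02 without that culture.

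Irf1, the first transcription factor of the gamma response, stood at 9.38, 10.84, 9.91 and 9.74 in WT and at 9.34, 10.24, 9.43 and 9.70 in KO. Ifi47 stood at 8.24, 9.04, 7.47 and 7.94 in WT and at 8.05, 8.28, 7.61 and 7.41 in KO. WT replicate 2 was highest for both, by 0.60 and 0.76 log2 units over the next culture, KO replicate 2. The log2 fold changes were -0.29 for Irf1 and -0.33 for Ifi47, with standard errors of 0.33 and 0.34, and 0.01 and -0.05 without WT replicate 2. Irf1 had 5 probes, which gave log2 fold changes from -0.43 to 0.24.

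Irgm1 and Iigp1 went another way. Irgm1 stood at 13.83, 13.14, 13.64 and 13.62 in WT and at 13.97, 13.71, 13.06 and 13.09 in KO. Its low values were those of WT replicate 2 and of the KO cultures on slide 2, and its log2 fold change of -0.10 was 0.29 within slide 1. Its other 2 probes were highest in KO replicates 2 and 1, so none of its 3 probes was highest in WT replicate 2. Iigp1 was dim, at 4.89, 4.90, 4.20 and 5.29 in WT and at 4.13, 6.04, 4.36 and 4.17 in KO, detected on 3 of 4 WT arrays and 1 of 4 KO arrays. The 1 KO array with a detected signal, replicate 2, held its highest value.

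Gbp2 was the gamma-type gene with a higher mean in KO. It stood at 9.12, 10.89, 9.54 and 9.49 in WT and at 10.55, 10.33, 10.05 and 9.76 in KO. All KO cultures lay above WT replicates 1, 3 and 4, and below WT replicate 2. The log2 fold change was 0.41 (SE 0.37), and 0.79 (SE 0.23) without WT replicate 2. In those 7 cultures the groups of Gbp2 did not overlap, as was so for 4.88% of all genes tested in either direction and for 2.30% with KO higher. Apart from Ifne, no other of the 27 genes was without overlap there. The limma adjusted p of Gbp2 was 0.84 with all cultures and 1.00 without WT replicate 2. A second, dimmer probe of Gbp2 had a log2 fold change of -0.33 and stood at 5.82 in WT replicate 2 and at 4.54 to 5.48 elsewhere, so the probes disagreed on the direction between genotypes.

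The 14 genes outside the test were dim, yet several of them carried the same culture. 9 of the 14 were detected in WT replicate 2 and 3 of these, Irf7, Ifih1 and Oas2, in no other culture. Rsad2, or viperin, an antiviral enzyme that makes a chain-terminating nucleotide, stood at 4.26, 8.11, 4.49 and 4.33 in WT and at 5.51, 4.70, 4.93 and 4.23 in KO. Cmpk2, a mitochondrial nucleotide kinase, stood at 4.37, 7.16, 4.18 and 4.45 in WT and at 4.89, 4.35, 4.57 and 4.52 in KO. After WT replicate 2, both were highest in KO replicate 1. Irf7 reached 6.23, Mx2 6.32, Oas2 5.99 and 1 of the 3 probes of Oasl1 6.34 in WT replicate 2, against at most 5.17, 5.21, 4.41 and 5.77 in the other cultures. These 6 genes were detected on too few arrays to enter the fit, so the tested set leaves out genes that were detected in 1 to 3 cultures, WT replicate 2 always among them.

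**Figure D3:**
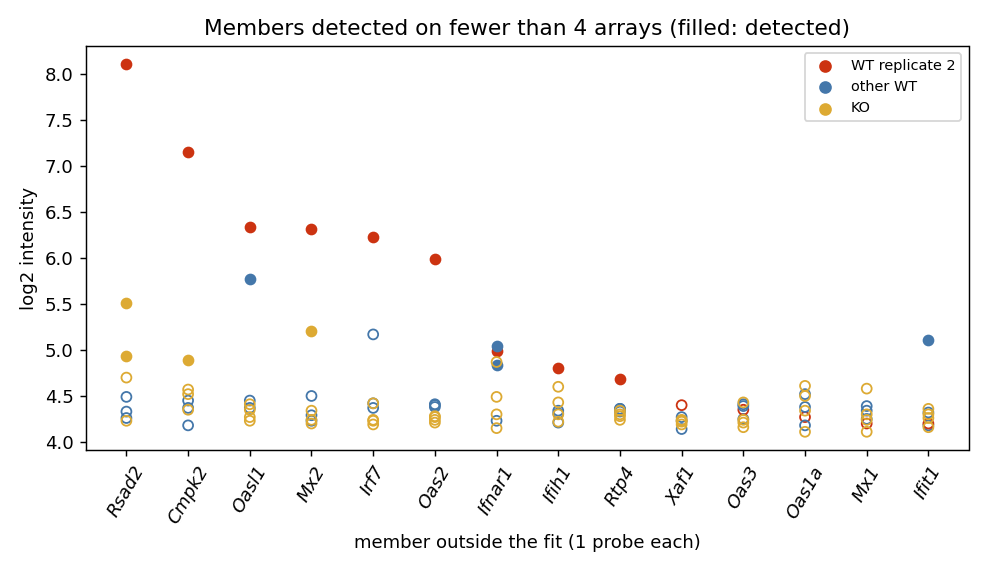
Log2 intensity of the 14 genes detected on fewer than 4 arrays, 1 column each and 1 point per culture, through the probe brightest in WT replicate 2. Filled points are arrays on which the probe was detected. WT replicate 2 is the highest point for Rsad2, Cmpk2, Oasl1, Mx2, Irf7 and Oas2, and the last columns stay near background in nearly all cultures.

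4 of the 14, Oas1a, Oas3, Mx1 and Xaf1, were detected on 0 of 8 arrays through any probe. Mx1, a dynamin-like antiviral GTPase, is disrupted by a deletion in C57BL/6 mice, and its probe ranged from 4.11 to 4.58. Ifit1, a sensor of viral RNA caps, was not detected in WT replicate 2, where it stood at 4.20. Its only detected value was 5.11 in WT replicate 3. Ifih1 reached 4.80, and Rtp4 4.68 through 1 of its 2 probes, in WT replicate 2. Counted over all 42 genes, 35 were detected through at least 1 probe in WT replicate 2 and 27 to 29 in each of the other cultures.

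Between the genotypes, 0 of the 27 tested genes passed the limma adjusted p of 0.05, as did 0% of all 11859 genes. Before adjustment 5.74% of all genes tested had a p under 0.05, and of the 27 only Ifne, which the filter admitted through its KO arrays alone. By sign, 21 of the 27 were lower in KO, against 50.3% of all genes, and the median log2 fold change was -0.30 against 0.00. Without WT replicate 2, 10 of the 27 were lower, against 50.7% of all genes, and the median was 0.11. 11 genes changed sign, all of them from lower to higher in KO. Slide 1 holds all WT cultures, WT replicate 2 among them, and of the KO cultures replicates 1 and 2 only. Within slide 1, with WT replicate 2 thus kept, 19 of the 27 were lower, against 54.0% of all genes, and the median was -0.35.

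**Figure D4:**
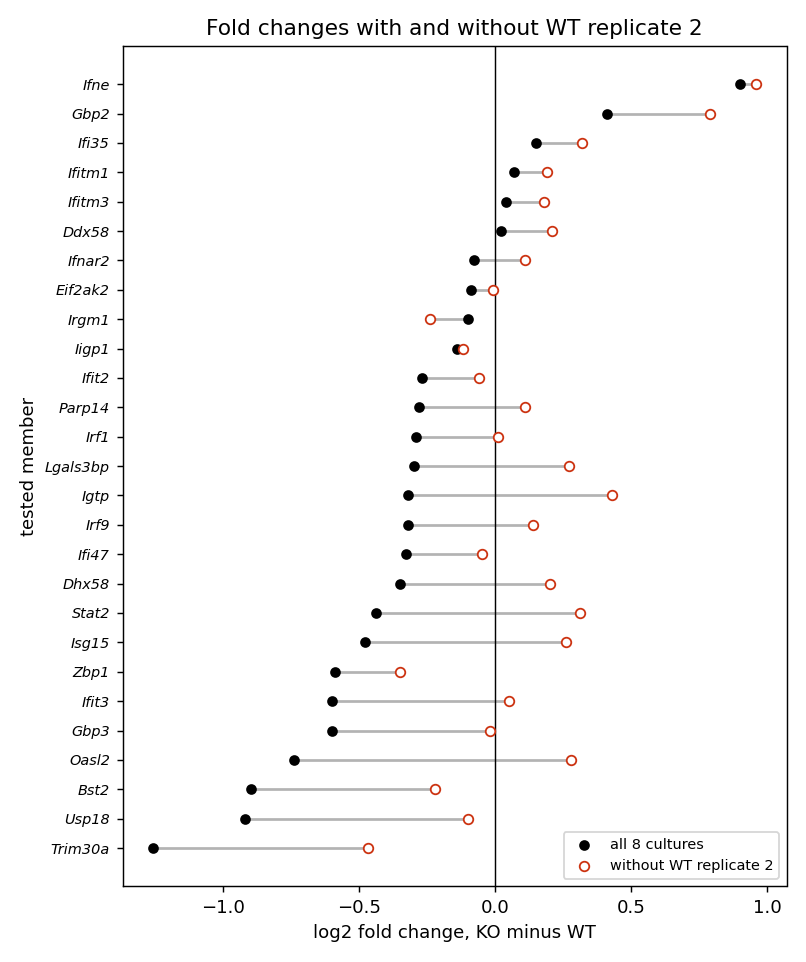
Log2 fold change of KO relative to WT for the 27 tested genes, with all 8 cultures (filled) and without WT replicate 2 (open). Nearly all open points lie to the right of the filled ones, and 17 lie above 0 where 6 filled points do. Ifne moves little, and Irgm1 moves left.

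The 18 type I genes had a median log2 fold change of -0.34 and the 7 gamma-type genes one of -0.29, and without WT replicate 2 these were 0.16 and -0.02. Within slide 1, with WT replicate 2 kept, they were -0.42 and -0.01. 14 of 18 and 6 of 7 were lower in KO by sign. The excess of WT replicate 2 over the mean of the other 7 cultures ranged from 0.30 to 3.90 log2 units over the type I genes, with a median of 1.92. Over the gamma-type genes it ranged from -0.42 to 2.74, with a median of 1.17. It was above 2 log2 units in 9 of 18 type I and 2 of 7 gamma-type genes. Each set thus held genes with a large excess and genes with hardly any, and with 7 gamma-type genes the division between the sets was not tested.

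Both sets peaked in WT replicate 2. As a median over its genes of the deviation from each gene's mean, the type I set stood at -0.27, 1.68, -0.28 and -0.23 in WT and at -0.01, -0.20, 0.00 and -0.29 in KO. The gamma-type set stood at -0.02, 1.02, -0.43 and -0.09 in WT and at 0.05, 0.28, -0.39 and -0.21 in KO. Outside WT replicate 2 the median of the type I set moved within 0.3 log2 units. Single type I genes moved more over those 7 cultures, with ranges of 0.51 to 2.45 log2 units. The median of these ranges was 1.04, against 0.93 over all genes tested. Over the 153 pairs of type I genes the median Pearson correlation across the 8 cultures was 0.65, and 0.10 across the 7 cultures without WT replicate 2. For the 126 pairs of a type I and a gamma-type gene it was 0.54 and 0.00, and over all pairs of genes tested 0.00 and 0.01. These correlations describe pairs that share the same arrays, and with all 8 cultures they rest on 1 of them. Among the other 7 cultures KO replicate 1 was the highest for 7 of the 18 type I genes, as it was for 1401 of all 11859 genes. Of the 7 gamma-type genes, KO replicates 1 and 2 were each the highest for 3.

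Markers of other cell types also differed between cultures. WT replicate 2 had the highest median of the macrophage and leukocyte markers, at 1.89, and of the adventitial fibroblast markers, at 1.32, and the lowest of the smooth muscle markers, at -0.92. In a bulk culture, fewer cells of a type and less RNA per cell cannot be told apart. The macrophage list did not rank the cultures as the interferon genes did. WT replicate 1 had a macrophage median of 1.5 and a type I median of -0.27, and KO replicate 3, with the lowest macrophage median of -2.34, a type I median of 0.00. The summed linear intensity of the 20 tested macrophage markers, out of 22, ranged from 12959 to 84524 in WT and from 8701 to 56347 in KO, and was 69648 in WT replicate 1. That of the 7 tested fibroblast markers, out of 8, was 36066 in WT replicate 2 and 11421 to 21291 elsewhere. 5 of these 7 were highest in WT replicate 2, among them Lum, a matrix proteoglycan, at 10.30 there and at 6.10 to 8.60 elsewhere. Dpt, a matrix protein, went the other way, at 5.92 there against 10.36 in KO replicate 1, and Cd34 was highest in WT replicate 1. Of the 11 smooth muscle markers 9 were lowest in WT replicate 2, among them Myh11 at 5.23 there and at 7.68 to 8.75 elsewhere. The summed intensity of these 11 was 38183 in WT replicate 2, 52735 in WT replicate 1 and 49833 to 68353 over the cultures other than WT replicate 2. The markers of plasmacytoid dendritic, T, B and NK cells were mostly outside the test, with 4 of 15 tested. In WT replicate 2 these stood at 4.30 for Siglech, 5.18 for Cd3e, 5.63 for Klrb1c and 11.91 for Tcf4, against at most 5.34, 8.30, 5.63 and 11.90 in the other cultures. Between genotypes, 20 of 20 macrophage and 7 of 7 fibroblast markers were lower in KO by sign and 11 of 11 smooth muscle markers higher, with median log2 fold changes of -0.91, -0.51 and 0.67. Without WT replicate 2 these medians were -0.40, -0.11 and 0.47. Within slide 1, with WT replicate 2 kept, they were 0.15, -0.26 and 0.70, with 5 of 20 macrophage markers lower in KO. The macrophage direction turned there, where the only KO cultures were replicates 1 and 2. Their macrophage medians were 0.81 and 0.44, against -2.34 and -0.85 in KO replicates 3 and 4. The slide and the choice of cultures cannot be told apart. The part of other cell types in the excess of WT replicate 2 was not tested.

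**Figure D5:**
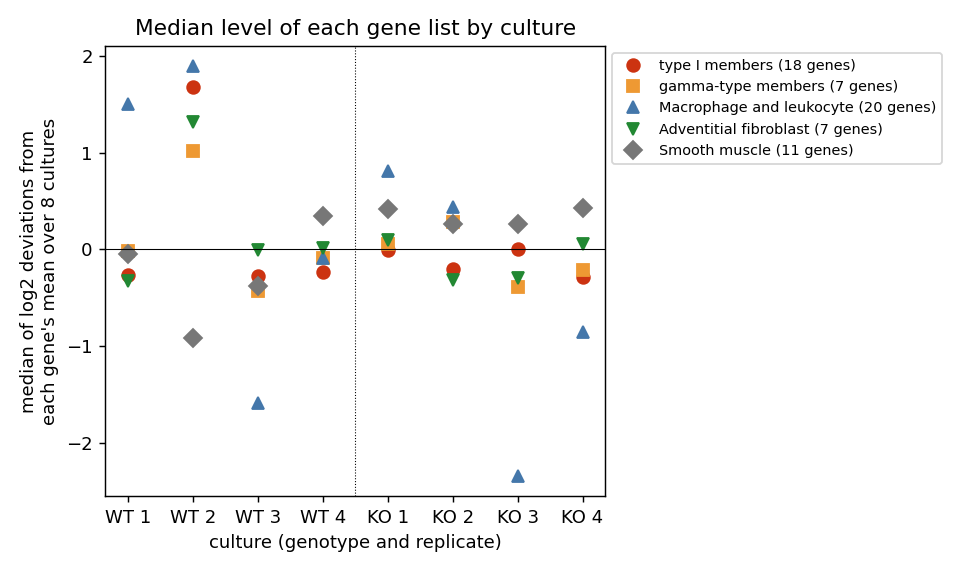
Median over each gene list of the log2 deviation from each gene's mean over the 8 cultures, by culture. The type I, gamma-type and adventitial fibroblast lists are highest in WT replicate 2, at 1.68, 1.02 and 1.32, and the next highest gamma-type median is 0.28 in KO replicate 2. The macrophage and leukocyte list is high in WT replicates 1 and 2 and low in WT replicate 3 and KO replicate 3, and the smooth muscle list is lowest in WT replicate 2.

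Of 67 other genes of the interferon pathways, 45 were tested and 0 passed in either direction. 31 of the 45 had a lower mean in KO, and the median log2 fold change was -0.19. Without WT replicate 2 these were 21 and 0.03. 25 of the 45 were highest in WT replicate 2. The kinases did not set WT replicate 2 apart as the target genes did. Jak1 stood at 8.75, 8.42, 8.77 and 8.99 in WT and at 8.85, 8.69, 8.06 and 8.03 in KO, and Tyk2 at 8.33, 8.69, 8.08 and 7.96 and at 7.61, 7.73, 8.42 and 7.90. Ifngr1, a chain of the interferon gamma receptor, ranged from 8.73 to 9.33. Socs1, a feedback inhibitor of these kinases, ranged from 4.42 to 5.92, with WT replicate 2 at 5.08. The log2 fold changes of Jak1, Tyk2, Ifngr1 and Socs1 were -0.33, -0.35, 0.08 and 0.03. Ccl5, a chemokine, had the only p under 0.05 before adjustment in this list, with a log2 fold change of -0.70 (SE 0.28) and a limma adjusted p of 0.83. It was highest in WT replicate 1, at 6.25, and stood at -0.71 without WT replicate 2. Uba7, the enzyme that activates ISG15, and Irgm2, an immunity-related GTPase, were picked after their values were seen. In WT replicate 2 they stood at 9.45 and 10.04, against at most 8.06 and 7.69 in the other cultures. The 4 interferon genes of this list, Ifnb1, Ifng, Ifnk and Ifna4, were not tested, and other interferon genes were not looked up.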

How the data were processed

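Per the file headers, the deposited scanner table holds for each of 46237 probes on 8 arrays a mean bead intensity, its SD over beads, a bead count and a p-value of detection, with array medians of 94.7 to 128.1. A second deposited table holds intensity that the authors had normalized on a linear scale, as its array medians of 113.4 to 116.2 show, by a method not given in the sources used here. In the scanner file, identifiers did not belong to the values beside them (Spearman correlation with the value table -0.0083 to -0.0047 per array). Rows were therefore matched by their 8 ranks, which paired 46237 of 46237 one to one, and the value table's identifiers were used. Names came from the platform annotation, updated through the RefSeq table of GRCm38.p6. 35784 probes had 1 gene and 10453 none listed.

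The neqc function of limma 3.58.1, run in R 4.3.3, processed the intensities (background inferred from the detection p-values, offset 16, quantile normalization, log2). 21275 probes detected (p under 0.05) on at least 4 arrays were kept, 18381 with a gene, and each of 11859 genes was represented by its brightest kept probe. lmFit and eBayes tested KO against WT, two-sided, with Benjamini-Hochberg adjustment over all genes. The fit was tested on simulated data. Values in each culture are given for the ligand and receptor genes, genes whose groups do not overlap, the 2 genes of each role with the largest range, and all gamma-type genes. Ifit3, Rsad2, Cmpk2 and the other dim genes described were added after their values were seen. The genes, lists and tests were chosen with earlier results of these data known. The alternatives were other background corrections, the authors' values, other filters and probe rules, slide, replicate number, array weights and leaving out each culture.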

Additional observations from a re-analysis of the deposited data

Results flagged for a closer look

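In a group of 4, a culture was singled out when its gap to the nearest other culture exceeded Dixon's critical value for 4 samples, as a share of the group's range. For 1 group alone, chance gives about 1 in 20. The 68 groups compared shared the same arrays, and the type I and gamma-type medians among them came from the same genes. They are not independent, so their count is not set against that rate. Of the 68 groups, 7 were singled out, 6 of them for a high WT replicate 2. Its log2 intensity was 10.81 for Oasl2, 11.52 for Isg15, 10.06 for Usp18, 11.96 for Lgals3bp and 8.72 for Igtp, and its median deviation over the type I genes was 1.68. The other was Iigp1 in KO replicate 2, at 6.04. Other genes with a high WT replicate 2, such as Stat2 and Trim30a, did not meet this rule because the remaining WT cultures differed more among themselves.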

How the results depend on the processing

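Under the 18 alternatives, 0 genes passed the limma adjusted p of 0.05, among the interferon-stimulated genes and over all genes, with 464 to 1117 genes at a p under 0.05 before adjustment (681 as reported). The highest count came without the filter on dim probes, where more genes were tested. Among 266 values of the tested genes under settings other than leaving out a culture, 16 changed sign. The fit with a slide term and that within slide 1 gave the same estimates: Ifnar2 stood at 0.03, Eif2ak2 at 0.04, Ifitm1 at -0.08, Ifitm3 at -0.26, Irgm1 at 0.29, Iigp1 at 0.27 and, outside the members, Jak1 at 0.03. With array weights, which gave WT replicate 2 a weight of 0.49, the median of the tested genes was -0.06 and that of the type I genes -0.06, and Stat2 stood at 0.19, Lgals3bp at 0.15 and Igtp at 0.15. With the mean of all kept probes Ifitm1 stood at -0.20 and Tyk2 at 0.10. Without the filter on dim probes, 33 of 41 members were lower in KO by sign, more genes being counted. With 1 culture left out that count ranged from 10, without WT replicate 2, to 24, without WT replicate 3. The log2 fold changes then ranged from -0.19 to 0.11 for Ifnar2, -0.58 to 0.14 for Irf9, -0.87 to 0.31 for Stat2, -0.18 to 0.21 for Ddx58, -0.67 to 0.20 for Dhx58, -0.19 to 0.03 for Eif2ak2, -1.06 to 0.05 for Ifit3 and -1.16 to 0.28 for Oasl2. They ranged from -0.01 to 0.19 for Ifitm1, -0.11 to 0.22 for Ifitm3, -0.73 to 0.26 for Isg15, -0.56 to 0.11 for Parp14, -0.53 to 0.27 for Lgals3bp, -0.48 to 0.01 for Irf1 and -0.62 to 0.43 for Igtp. For Irgm1, Iigp1, Ifngr1 and Socs1 they ranged from -0.27 to 0.04, -0.60 to 0.04, -0.02 to 0.17 and -0.28 to 0.26. Ifne ranged from 0.74 to 0.99. The cause of these shifts was not tested. The replicate block left the median of the tested genes at -0.30, 21 of 27 lower in KO and the number passing at 0, with 1005 genes at a p under 0.05. Deviations of same-numbered cultures correlated at 0.318, 0.21, 0.286 and 0.063 for numbers 1 to 4. The labels do not say that the numbers pair the cultures, so the replicate block was kept as an alternative. These correlations do not settle whether same-numbered cultures belong together, and this was not tested. Low signal over background limits what can be said of Ifne, Ifnar1, Iigp1 and the other dim genes.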
